A study of Mus musculus with 14 samples.

Results

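MHCII-low lung cells sorted 4 weeks after bleomycin were compared with the same kind of cells sorted 2 weeks after bleomycin. The comparison set 3 libraries at each time against each other, 6 of the 14 in the series, chosen by their labels. The spread behind each p-value was estimated over all 14 libraries. Of the 43432 genes in the table, 14986 had at least 10 normalized counts in at least 2 of the 6 libraries and were tested, and 28446 did not (20341 of these were at 0 in all 6). The mice were males of the strain 129S1 aged 10 to 12 weeks that had bleomycin (labelled dose 3 U/k) instilled into the trachea. Cells were sorted from digested whole lung as SiglecF-positive and CD11c-positive, with a low level of surface MHC class II (MHCII). MHCII-high cells from both times (3 libraries each) and MHCII-low cells from control mice given water (2 libraries) are set beside them. The labels do not say whether a library is 1 mouse or a pool, nor which of 2 named sorters a sample went through. Differences are therefore judged against the spread between libraries, which may be partly technical.

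Bleomycin is a drug that breaks DNA, and in the mouse lung it gives epithelial injury, inflammation and then scarring that partly resolves. Cells that carry both SiglecF, a lectin for sialic acids, and the integrin chain CD11c are mostly alveolar macrophages, the phagocytes that clear surfactant and debris from the air space. During injury, monocytes enter the lung and take on parts of the alveolar macrophage program, so that a gate of this kind can hold both resident and recruited cells. Macrophages handle large amounts of lipid and keep cholesterol in balance by opposing routes. SREBP2 turns on cholesterol synthesis and uptake when sterol in the endoplasmic reticulum is low, and LXR turns on export when oxysterols are high.

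The 6 libraries held 15770506 to 64622863 reads, as recovered from the deposited values. All 20 genes of an alveolar macrophage marker list were above the expression filter. So were all 12 alveolar type 2 and all 8 endothelial markers, so passing the filter does not tell cell types apart. Chil3, a secreted chitinase-like protein of alveolar macrophages, lay between 251121 and 303547 normalized counts at 2 weeks and between 215128 and 290037 at 4 weeks. Normalized counts are reads scaled to be comparable between libraries, but not corrected for gene length. The sort marker Siglecf lay between 6471 and 7231 at 2 weeks and between 7205 and 9551 at 4 weeks (adjusted p = 0.70). Itgax, which encodes CD11c, lay between 37356 and 44133 at 2 weeks and between 28614 and 33423 at 4 weeks (adjusted p = 0.51). The Itgax libraries did not overlap between the times and were lower at 4 weeks, short of the threshold. The summed level of the MHC class II presentation genes was 13463 to 25526 normalized counts at 2 weeks. At 4 weeks it was 13460 to 20208, and in the controls 7771 and 9459. It was 162957 to 238992 and 107770 to 200088 in MHCII-high cells of the same times, so the labelled sort was visible in the RNA. Mitochondrial ribosomal RNA took 3.42%, 18.3% and 12.7% of the reads in the 2-week replicates 1 to 3, and 3.12%, 23.2% and 5.10% in the 4-week replicates, so its spread within each group was wide.

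Genes lower at 4 than at 2 weeks included 16 of 23 cholesterol synthesis and uptake genes, those for osteopontin and fibronectin, 4 of 13 genes for matrix metalloproteinases and inhibitors, and 5 of 12 complement genes. Of the 14986 genes, 155 passed an adjusted p of 0.05 (1.03%). At 4 weeks 20 of them were higher (0.133%) and 135 lower (0.901%). These shares of all genes are the base for each list count below. Among the lower genes 107 differed by at least 2-fold and 44 by at least 4-fold, and among the higher genes 19 and 6. The median log2 fold change was -1.59 for the lower genes and 1.30 for the higher genes, against 0.03 over all genes tested. In all 155 genes the 3 libraries of each time did not overlap, which held for 14.9% of all genes tested (7.58% higher and 7.3% lower at 4 weeks). The count of 155 was 96 without the 2-week replicate 3 and 95 without the 4-week replicate 2. The balance of directions moved with the scaling: 12.9% of the calls were higher in the deposited scaling and 27.0% (34 of 126) when libraries were set to equal totals without mitochondrial ribosomal RNA. The sign of all 155 genes was the same under each alternative setting tried. In bulk RNA, fewer cells of one type and less RNA per cell cannot be told apart, for these and for all genes below.

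**Figure D1:**
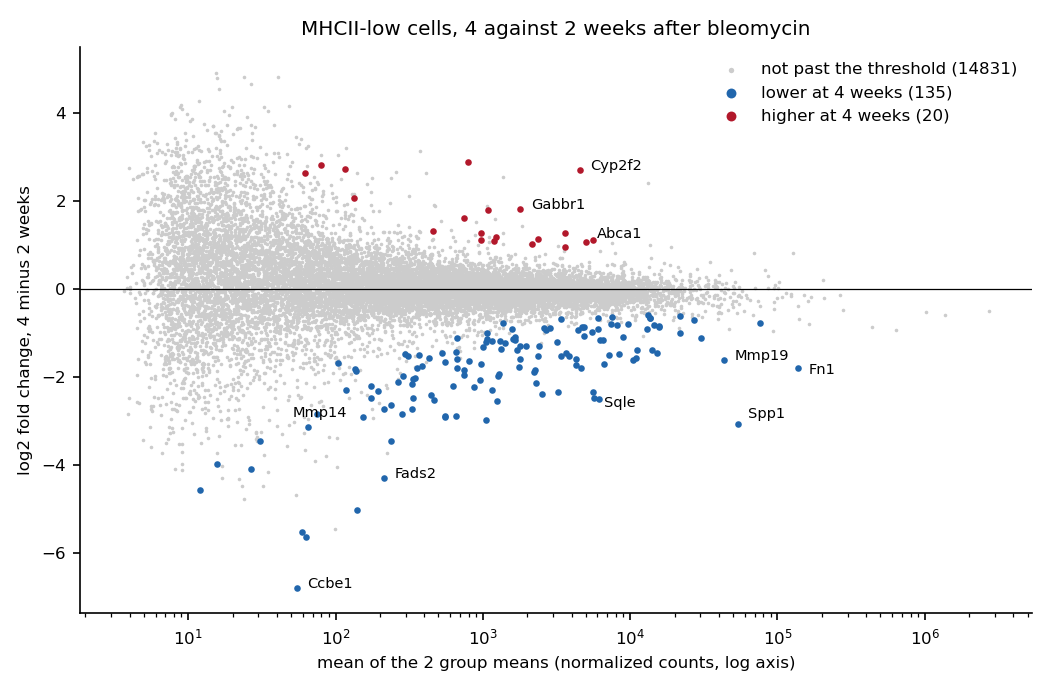
Each point is 1 of the 14986 genes tested: the horizontal axis is the mean of the 2 group means in normalized counts (log axis) and the vertical axis the log2 fold change, 4 minus 2 weeks, in MHCII-low cells. The 135 genes lower at 4 weeks (blue) outnumber the 20 higher (red), and Spp1, Fn1 and Mmp19 are lower genes with high levels.

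Cholesterol synthesis and uptake gave the largest count of any gene list. Of 23 list genes, all tested, 16 were lower at 4 weeks (0.901% of all genes were), none was higher and 7 did not pass. Their median log2 fold change was -1.52, against 0.03 over all genes. The libraries of both times did not overlap in 21 of the 23 toward lower values, against 7.3% of all genes. The sum over the 23 genes was 85803 to 119221 normalized counts in the 2-week libraries, 28859 to 34802 in the 4-week libraries, and 23389 and 23976 in the controls. All 4-week libraries thus lay far below all 2-week libraries and somewhat above both controls.

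For 15 of the 23 genes a RefSeq promoter entry (build GRCm38.p6) was found, and for 9 of the 16 lower genes. The 250 bases before each start site were searched on both strands for CCAAT, the box bound by NF-Y. NF-Y is a factor known to work beside SREBP on sterol-regulated promoters. The windows were also searched for TCACNCCAC, a form of the sterol element bound by SREBP. The box was present in all 15 genes (9 of 9 among the lower ones), against 39.6% of the 10391 tested genes with an entry. A gene with several start sites counted if any window held the box. By window it was 15 of 18 (83.3%), against 34.5%. The sterol element in this spelling was present in 1 of 15, Hmgcs1, against 1.2%. These matches describe letters in a window and are not evidence of binding. No match in the window says nothing on elements elsewhere or in another spelling. Shown are 4 of the 9 lower genes, selected because their windows overlap little or nothing of the gene as given in the authors' table. They run 5′ to 3′ on the gene's strand, and capitals mark CCAAT, its reverse complement ATTGG, or the sterol element.
Hmgcs1 (chr13:119690101-119690350, plus strand; 3 boxes and the sterol element TCACCCCAC): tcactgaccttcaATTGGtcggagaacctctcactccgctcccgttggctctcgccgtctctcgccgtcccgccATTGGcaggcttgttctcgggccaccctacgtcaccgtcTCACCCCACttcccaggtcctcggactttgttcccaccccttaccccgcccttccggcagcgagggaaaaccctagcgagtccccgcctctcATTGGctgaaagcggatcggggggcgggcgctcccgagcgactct
Lss (chr10:76531355-76531604, plus strand; 1 box): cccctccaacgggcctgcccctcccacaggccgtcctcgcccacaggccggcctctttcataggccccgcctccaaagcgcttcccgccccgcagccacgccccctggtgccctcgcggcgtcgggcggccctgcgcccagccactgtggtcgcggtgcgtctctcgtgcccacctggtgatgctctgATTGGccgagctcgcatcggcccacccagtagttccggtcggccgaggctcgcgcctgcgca
Sc5d (chr9:42264301-42264550, minus strand; 1 box): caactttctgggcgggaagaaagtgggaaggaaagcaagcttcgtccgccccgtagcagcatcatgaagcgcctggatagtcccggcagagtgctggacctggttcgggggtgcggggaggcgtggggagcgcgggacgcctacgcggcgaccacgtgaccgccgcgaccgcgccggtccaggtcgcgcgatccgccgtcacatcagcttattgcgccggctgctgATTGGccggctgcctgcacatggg
Srebf2 (chr15:82147019-82147268, plus strand; 1 box): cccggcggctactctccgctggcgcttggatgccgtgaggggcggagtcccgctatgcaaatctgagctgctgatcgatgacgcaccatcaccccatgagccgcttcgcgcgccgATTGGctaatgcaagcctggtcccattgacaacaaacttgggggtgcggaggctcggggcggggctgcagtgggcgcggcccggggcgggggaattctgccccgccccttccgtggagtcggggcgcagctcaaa

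Early steps of the pathway make mevalonate and isoprenoids. Hmgcs1, which encodes the cytosolic HMG-CoA synthase, measured 6645, 11454 and 12621 normalized counts in the 2-week replicates 1 to 3 and 2622, 4027 and 2729 in the 4-week replicates. The controls held 2332 and 2157. The groups did not overlap, and the log2 fold change was -1.69 ± 0.21 (SE, limma adjusted p = 0.00011). Idi1 and Fdps, which make and join the isoprenoid units, had log2 fold changes of -2.19 (adjusted p = 0.0082) and -2.10 (adjusted p = 0.0097). The Idi1 call was lost without the 2-week replicate 1 or 3, and the Fdps call without the 2-week replicate 2 or 3 or the 4-week replicate 2 or 3. The mevalonate kinases and decarboxylase between them did not pass: Mvk had a log2 fold change of -1.47 (adjusted p = 0.22), Pmvk of -1.52 (0.058) and Mvd of -1.01 (0.11).

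Changes at the committed sterol steps varied: some exceeded those of Idi1 and Fdps, and others, such as Lss and Msmo1, were smaller. Sqle, the squalene epoxidase that is the second control point of the pathway, measured 9431, 8809 and 10532 in the 2-week replicates and 1692, 2064 and 1455 in the 4-week replicates. The controls held 1116 and 1625. Every 4-week library lay close to the controls and far below every 2-week library. The log2 fold change was -2.48 ± 0.20 (adjusted p = 6.4e-07), a 5.56-fold lower level on the log2(value + 1) scale. Sqle lies at chr15:59315077-59331192 (mm10, plus strand).

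Cyp51, the sterol demethylase, measured 8489, 9042 and 10464 at 2 weeks and 1586, 2079 and 1866 at 4 weeks, with 1543 and 1305 in the controls (log2 fold change -2.34 ± 0.23, adjusted p = 1e-05). No 4-week library came near a 2-week library. The other passing enzymes were Fdft1, the squalene synthase (log2 fold change -2.33), Lss, the lanosterol synthase (-1.51), Msmo1 (-1.83), Hsd17b7 (-1.76) and Sc5d (-2.54), all with an adjusted p of 0.0021 or less. Nsdhl (-1.22, adjusted p = 0.065) and Dhcr7 (-0.76, adjusted p = 0.12) did not pass. Ebp, the sterol isomerase, had a log2 fold change of 0.08 ± 0.36 (adjusted p = 1.0).

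Genes of sterol sensing and transport fell with the enzymes. Insig1, which holds SREBP in the endoplasmic reticulum and is itself an SREBP target, had a log2 fold change of -1.51 (adjusted p = 5.5e-05). Stard4, a carrier of sterol between membranes, had one of -1.50 (adjusted p = 0.00013). Srebf2, which encodes SREBP2, had one of -1.07 (adjusted p = 0.03), but the 4-week replicate 1 at 4330 came close to the lowest 2-week library at 5016, and the call was lost without the 2-week replicate 2 or 3 or the 4-week replicate 2 or 3. Of the 16 calls, 13 held with each library left out in turn. The list count ran from 13 (without the 2-week replicate 3) to 17 (without the 4-week replicate 1), all lower.

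**Figure D2:**
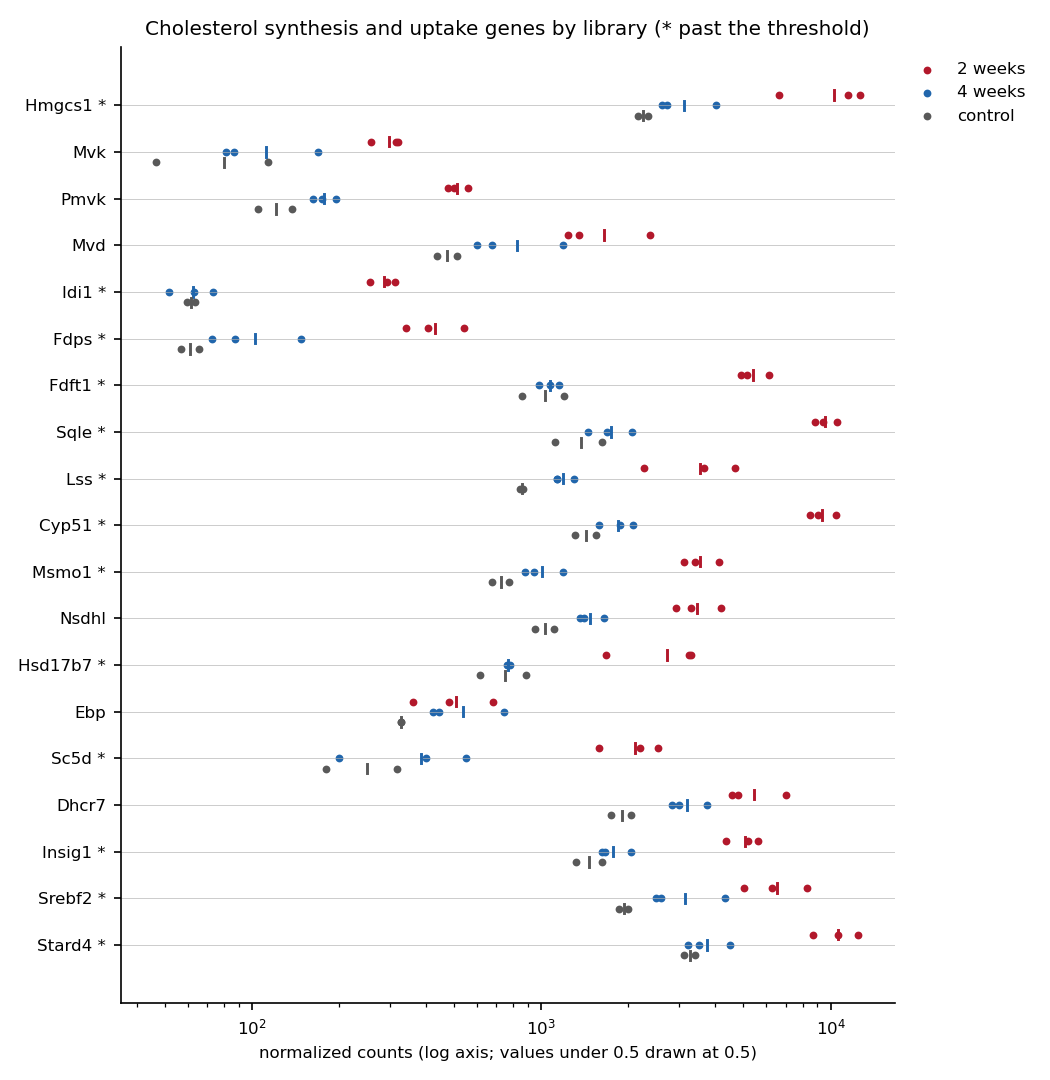
Normalized counts (log axis) of 19 of the 23 cholesterol synthesis and uptake genes in each MHCII-low library, in order of the pathway: 2 weeks (red), 4 weeks (blue) and control (grey), with a tick at each group mean and a star at the 13 of them past the threshold. For Sqle and Cyp51 the 4-week points lie beside the controls and well away from the 2-week points.

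Among 19 genes of fatty acid synthesis and storage, 4 were lower (0.901% of all genes were). None was higher and 15 did not pass (median log2 fold change -0.43). Fads2, the delta-6 desaturase of polyunsaturated fatty acid synthesis, measured 309, 374 and 537 normalized counts at 2 weeks and 20.6, 27.5 and 12.8 at 4 weeks, with 11.7 and 45.6 in the controls. The groups were far apart, with a log2 fold change of -4.28 ± 0.61 (adjusted p = 0.00055), a 19.5-fold lower level. Fasn, the fatty acid synthase, fell by 1.59 on the log2 scale (adjusted p = 0.0021). Scd2, a stearoyl-CoA desaturase, had a log2 fold change of -1.52 (adjusted p = 0.0054) and lost its call without the 2-week replicate 3. Fads1, the delta-5 desaturase, had one of -1.59 (adjusted p = 0.0099) and lost its call without the 2-week replicate 1 or the 4-week replicate 2. The master regulator Srebf1 (log2 fold change 0.04), the citrate lyase Acly (-0.59) and the lipid droplet coat gene Plin2 (0.01) did not pass. Acsl3, an acyl-CoA synthetase outside that list, fell by 2.73 on the log2 scale (adjusted p = 0.0036).

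Of 8 LXR genes, 2 were higher at 4 weeks (0.133% of all genes were) and 6 did not pass. Abca1, the transporter that exports cholesterol from macrophages, measured 3457, 3470 and 2782 normalized counts at 2 weeks and 7326, 6486 and 6654 at 4 weeks, with 6445 and 9712 in the controls. Each 4-week library was above each 2-week library and within the range of the controls (log2 fold change 1.08 ± 0.17, adjusted p = 0.0015). Mylip, an LXR-induced ubiquitin ligase, had a log2 fold change of 1.02 (adjusted p = 0.017), and its call was lost without the 2-week replicate 2 or 3 or the 4-week replicate 1 or 2. Abcg1, the partner exporter, measured 36414 to 65907 at 2 weeks and 74219 to 113369 at 4 weeks, without overlap, and did not pass (log2 fold change 0.82, adjusted p = 0.054). The list's median was 0.11, and its count was 1 without the 2-week replicate 2 or the 4-week replicate 1 or 2.

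The secreted matrix protein osteopontin had the smallest adjusted p of the 155 genes. Spp1, which encodes it and which marks profibrotic macrophages in lung fibrosis, measured 105620, 79824 and 101920 normalized counts at 2 weeks and 8523, 12320 and 14053 at 4 weeks. The controls held 6964 and 7388. No library of one time approached the other, and the log2 fold change was -3.06 ± 0.22 (adjusted p = 2e-07), an 8.35-fold lower level. Spp1 lies at chr5:104435118-104441050 (mm10, plus strand).

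Fn1, which encodes fibronectin, a matrix glycoprotein of provisional and scar matrix, measured 196439, 201037 and 242793 at 2 weeks and 57653, 58146 and 70257 at 4 weeks. The controls held 27741 and 32671, so all 4-week libraries lay between the 2-week and control libraries. The log2 fold change was -1.78 ± 0.21 (adjusted p = 8e-05). Of the 13 matrix genes on the list, 4 were lower (0.901% of all genes were). None was higher and 9 did not pass (median log2 fold change -0.47). The other lower genes were Gpnmb, a membrane glycoprotein of lipid-laden macrophages (-0.76, adjusted p = 0.025), and Tgfbi, a TGF-beta-induced adhesion protein (-0.82, adjusted p = 0.041). Gpnmb lost its call without the 2-week replicate 1 or 3 or the 4-week replicate 1 or 2, and Tgfbi without the 2-week or 4-week replicate 2 or 3. The list count was 2 without the 2-week replicate 3 or the 4-week replicate 2, in edgeR with library totals, at equal totals without mitochondrial ribosomal RNA, and with the 6 libraries alone. Collagen IV chains did not pass (Col4a1 log2 fold change -0.15, Col4a2 -0.47).

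Of 13 tested genes for matrix metalloproteinases and their inhibitors, 4 were lower (0.901% of all genes were). None was higher and 9 did not pass (median log2 fold change -1.07). Mmp19, a secreted protease that digests basement membrane components, measured 65125, 55494 and 75693 at 2 weeks and 18986, 20166 and 25908 at 4 weeks, with 10184 and 17093 in the controls (log2 fold change -1.60 ± 0.21, adjusted p = 0.00017). All 2-week libraries lay well above all 4-week libraries. Mmp12, the macrophage elastase, had a log2 fold change of -1.79 (adjusted p = 0.002), Mmp8, a collagenase, of -1.45 (adjusted p = 0.0003) and Mmp14, a membrane-anchored activator of other proteases, of -2.91 (adjusted p = 0.0004). All 4 calls held with each library left out in turn. Among proteases of the lysosome, Ctsk, a collagen-degrading cathepsin, fell by 1.38 on the log2 scale (adjusted p = 8e-05), the single call among 24 lysosomal genes (median -0.30; 2 in edgeR with TMM, DESeq2 and voom). Ctsl, another cathepsin, fell by 1.56 (adjusted p = 0.0021).

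**Figure D3:**
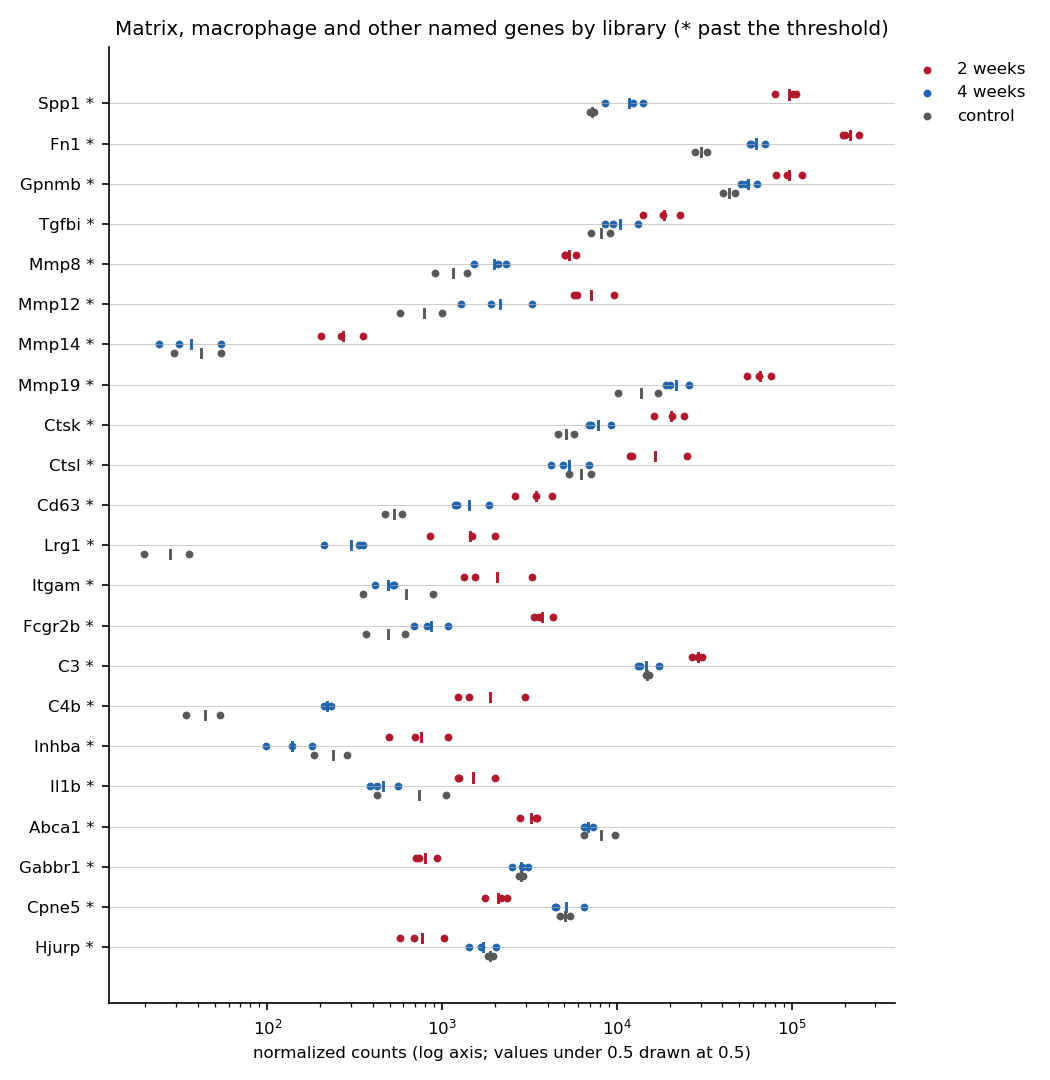
Normalized counts (log axis) of named matrix, protease, macrophage and other genes in each MHCII-low library: 2 weeks (red), 4 weeks (blue) and control (grey), with a tick at each group mean. In the genes from Spp1 to Il1b the 4-week points lie to the left of the 2-week points, and in Abca1, Gabbr1, Cpne5 and Hjurp to the right.

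Among 14 tested genes of the lipid-associated macrophage program, 2 were lower (Ctsl and Cd63), none was higher and 12 did not pass. Cd63, a tetraspanin of late endosomes, fell by 1.28 on the log2 scale (adjusted p = 0.0021). All 14 had a negative log2 fold change (median -0.39), against 47.0% of all genes, and 1 passed in edgeR with library totals. Trem2, the lipid receptor that defines the program, was at 2444 to 3476 at 2 weeks and 2268 to 3083 at 4 weeks (adjusted p = 0.99). Of 15 growth factor genes, 1 was lower: Inhba, a subunit of activin, measured 1081, 696 and 493 at 2 weeks and 98.6, 180 and 138 at 4 weeks (log2 fold change -2.41 ± 0.44, adjusted p = 0.0054), and its call was lost without the 2-week replicate 1. DESeq2 called 4 of the 15 and the fit of the 6 libraries alone 3, all lower. Tgfb1 (log2 fold change 0.03) and Pdgfa (-0.72) did not pass.

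Itgam, which encodes CD11b, an integrin chain higher on monocyte-derived cells than on resident alveolar macrophages, measured 3271, 1336 and 1534 normalized counts at 2 weeks and 413, 530 and 522 at 4 weeks (log2 fold change -1.96 ± 0.31, adjusted p = 0.0015), with 885 and 353 in the controls.

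Of 22 tested monocyte-derived or interstitial macrophage markers, 4 were lower (among them Itgam, Mmp14 and Cd14), against 0.901% of all genes. None was higher and 18 did not pass. The median log2 fold change was -1.25, and 18 of the 22 were negative, against 47.0% of all genes. Their summed level was 31117 to 37079 at 2 weeks, 18816 to 23023 at 4 weeks, and 17234 and 19728 in the controls. Csf1r, the M-CSF receptor gene, which did not pass (adjusted p = 0.068), made up most of this sum, with 23086 to 24959 at 2 weeks and 14230 to 18170 at 4 weeks. Without it the sum was 8031 to 12120 at 2 weeks, 4586 to 4853 at 4 weeks, and 3979 and 4742 in the controls. The count was 7 without the 4-week replicate 3 or with a filter of 50 in 3 libraries, and 9 in DESeq2 (1 higher, 8 lower). Cd14, the lipopolysaccharide co-receptor, had a log2 fold change of -0.67 (adjusted p = 0.048), and its call was lost without the 2-week replicate 1 or 3 or the 4-week replicate 2 or 3. The chemokine receptors Ccr2 (log2 fold change -0.53, adjusted p = 0.29) and Cx3cr1 (-1.92, adjusted p = 0.055) did not pass, and Ly6c2, which marks inflammatory monocytes, stayed at or below 15.4 normalized counts. This marker sum moved in the same direction as the matrix, protease and complement genes, and its part in their change was not tested. Itgam, C1qa, C1qb and C1qc are also on the complement list and Mmp14 on the metalloproteinase list, so these lists are not independent.

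Of the 20 resident alveolar macrophage markers, 2 were higher, 2 were lower and 16 did not pass (median log2 fold change -0.14). Of all genes, 0.133% were higher and 0.901% lower. Ear1, an eosinophil-type ribonuclease, had a log2 fold change of 1.13 (adjusted p = 0.012) and Fabp1, a fatty acid-binding protein, of 1.27 (adjusted p = 0.046). Ear1 lost its call without the 2-week or 4-week replicate 2 or 3, and Fabp1 without any of these or the 4-week replicate 1. The list had 2 calls without the 2-week or 4-week replicate 2 or 3 and in edgeR with library totals. Ear1 has near-identical relatives, among them Ear2 (log2 fold change 0.34, adjusted p = 0.78), so how reads were split between them is uncertain. The lower markers were Ctsk and Car4, a membrane carbonic anhydrase (log2 fold change -1.10, adjusted p = 0.0039). Pparg, the factor that GM-CSF induces to fix alveolar macrophage identity, measured 7416 to 8637 at 2 weeks and 9312 to 9603 at 4 weeks, without overlap but short of the threshold (log2 fold change 0.25, adjusted p = 0.74).

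Complement genes had the most negative median of the gene lists (-1.81), with 5 of 12 lower, none higher and 7 not passing. Of all genes tested, 0.901% were lower. C4b measured 1226, 1417 and 2960 at 2 weeks and 219, 211 and 231 at 4 weeks (log2 fold change -2.97 ± 0.40, adjusted p = 0.0003). It has a near-identical neighbour, C4a, so its reads may be shared. C3, the central component, fell by 0.99 on the log2 scale (adjusted p = 0.0021) from a far higher level, 26876 to 30753 at 2 weeks. Itgam, which is also a chain of complement receptor 3, was lower as given above. C3ar1, the anaphylatoxin receptor, fell by 1.51 (adjusted p = 0.013) and lost its call without the 2-week or 4-week replicate 1 or 3. C1qa, C1qb and C1qc had log2 fold changes of -2.90, -2.93 and -1.92 and did not pass (adjusted p = 0.12, 0.062 and 0.14), with wide spread among the 2-week libraries (C1qb 100 to 418).

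Surface receptors changed in part. Fcgr2b, the inhibitory Fc receptor, measured 3571, 3344 and 4287 at 2 weeks and 690, 819 and 1077 at 4 weeks, with 614 and 367 in the controls (log2 fold change -2.13 ± 0.21, adjusted p = 1.1e-05). It and Cd14 were the 2 lower genes of 17 Fc and Toll-like receptors, a count that was 1 in edgeR and voom. Of 19 scavenger, lectin and uptake receptors, 3 were lower: Msr1, the class A scavenger receptor (log2 fold change -1.39, adjusted p = 0.0018), Clec4e, the Mincle lectin (-1.23, adjusted p = 0.015), and Colec12 (-1.66, adjusted p = 0.038). Clec4e was not called without the 2-week or 4-week replicate 1 or 2. Colec12 was not called without these or the 2-week replicate 3. The list count ran from 1 to 5 with a library left out: 1 without the 2-week or 4-week replicate 1 or 2, and 5 without the 4-week replicate 3. It was 5 in DESeq2 and 1 in edgeR with library totals.

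Of 15 integrin subunits, 4 were lower (Itgam, Itga5, Itgb5 and Itgb3), against 0.901% of all genes, and none was higher. Itga5, the fibronectin receptor chain, and Itgb5 fell by 0.86 and 0.88 (adjusted p = 0.011 and 0.016). Itgb3, a partner of the alpha-V chain, was low (41.3 to 60.4 at 2 weeks and 0 to 7.8 at 4 weeks, adjusted p = 0.021). Itga5 lost its call without the 2-week replicate 1 or 3 or the 4-week replicate 2. Itgb5 lost it without the same libraries or the 4-week replicate 3, and Itgb3 without each library but the 4-week replicate 2. The integrin count was 1 without the 2-week replicate 1 or 3 and 2 without the 4-week replicate 2 or 3. It was 1 in edgeR with library totals and 2 at equal totals without mitochondrial ribosomal RNA.

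Of 25 type I interferon-stimulated genes, 3 were lower (0.901% of all genes were) and 22 did not pass (median log2 fold change -0.97). Oas3 and Oas2, which sense double-stranded RNA, had log2 fold changes of -2.73 (adjusted p = 0.019) and -1.74 (adjusted p = 0.039), and Ifi44 of -2.46 (adjusted p = 0.017). The count fell to 0 without the 2-week replicate 2 or 3 or the 4-week replicate 1, and to 1 without the 2-week replicate 1 and in edgeR and voom. In 12 of the 25 the libraries of both times did not overlap, all lower at 4 weeks, against 7.3% of all genes. None of 8 interferon-gamma-inducible genes passed in limma (0 under an unadjusted p of 0.05).

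Single genes passed in several signalling and metabolic lists. Cxcl16, a chemokine that also serves as a scavenger receptor, fell by 1.56 on the log2 scale (adjusted p = 0.0044), the single call among 13 chemokines, a count that was 3 without the 4-week replicate 3 and 2 with the 6 libraries alone. Il1b, the inflammasome-processed cytokine, measured 1228, 1250 and 2011 at 2 weeks and 425, 386 and 557 at 4 weeks (log2 fold change -1.69 ± 0.30, adjusted p = 0.0046). Its controls held 1044 and 424, so 1 control lay among the 4-week libraries and the other between the groups. Socs3, a feedback inhibitor of cytokine signalling, fell by 1.94 (adjusted p = 0.0017), the single call among 12 GM-CSF and M-CSF signalling genes (3 without the 4-week replicate 1, 5 in DESeq2, 4 in voom and with the GC trend removed, and 2 with the replicate block, all lower). Slc7a11, the cystine transporter that supplies glutathione synthesis, fell by 1.93 (adjusted p = 0.0015), the single call of 17 NRF2 genes. Of 17 glycolysis genes 2 were lower: Hk2, a hexokinase (-1.20, adjusted p = 0.0036), and Slc2a1, the glucose transporter GLUT1 (-1.17, adjusted p = 0.01). The Slc2a1 call was lost without the 2-week replicate 3 or the 4-week replicate 2 and in edgeR with library totals. Hspa5, the chaperone BiP, was the single call of 14 unfolded protein response genes (-0.70, adjusted p = 0.049), lost without the 2-week or 4-week replicate 1 or 2. The list had no call in edgeR, at equal totals without mitochondrial ribosomal RNA, without the filter, with the 6 libraries alone, with the mitochondrial covariate or with the replicate block, and 2 in DESeq2.

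Several other lists had no call in limma. No member passed among 32 cell cycle and DNA replication genes (median log2 fold change 0.08), 26 nuclear-encoded respiratory chain genes (0.01), 14 alternative activation genes (-0.12) or 11 heat shock genes (-0.19), and in these lists 0 had an unadjusted p under 0.05. Of 17 p53 targets (-0.27), 4 had an unadjusted p under 0.05, and 1 passed without the 2-week replicate 3. Of 17 immediate early genes (-0.04) it was 2, and 1 passed as lower in DESeq2, with the 6 libraries alone, with the GC trend removed, with the replicate block, and without the 4-week replicate 1. Of 12 iron handling genes (-0.10) it was 5, and 1 passed as lower in DESeq2 and with the 6 libraries alone. Of 13 eicosanoid synthesis genes (0.04) it was 2, and 1 passed as lower in DESeq2, in voom, with the 6 libraries alone, and without the 4-week replicate 2. In the 10 tested MHC class II presentation genes no change passed either (median -0.68; 4 with an unadjusted p under 0.05, and 1 called with the replicate block). H2-Ab1 measured 897, 422 and 1276 at 2 weeks and 569, 338 and 581 at 4 weeks (log2 fold change -0.70, adjusted p = 0.54), and H2-Eb1 143, 55.7 and 321 against 48.9, 6.9 and 126 (-1.91, adjusted p = 0.33). For both genes the libraries of the times overlapped. Without the 2-week replicate 2, which was the lowest of its group in both, 2 genes of the list passed, and 1 passed without the 4-week replicate 3.

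**Figure D4:**
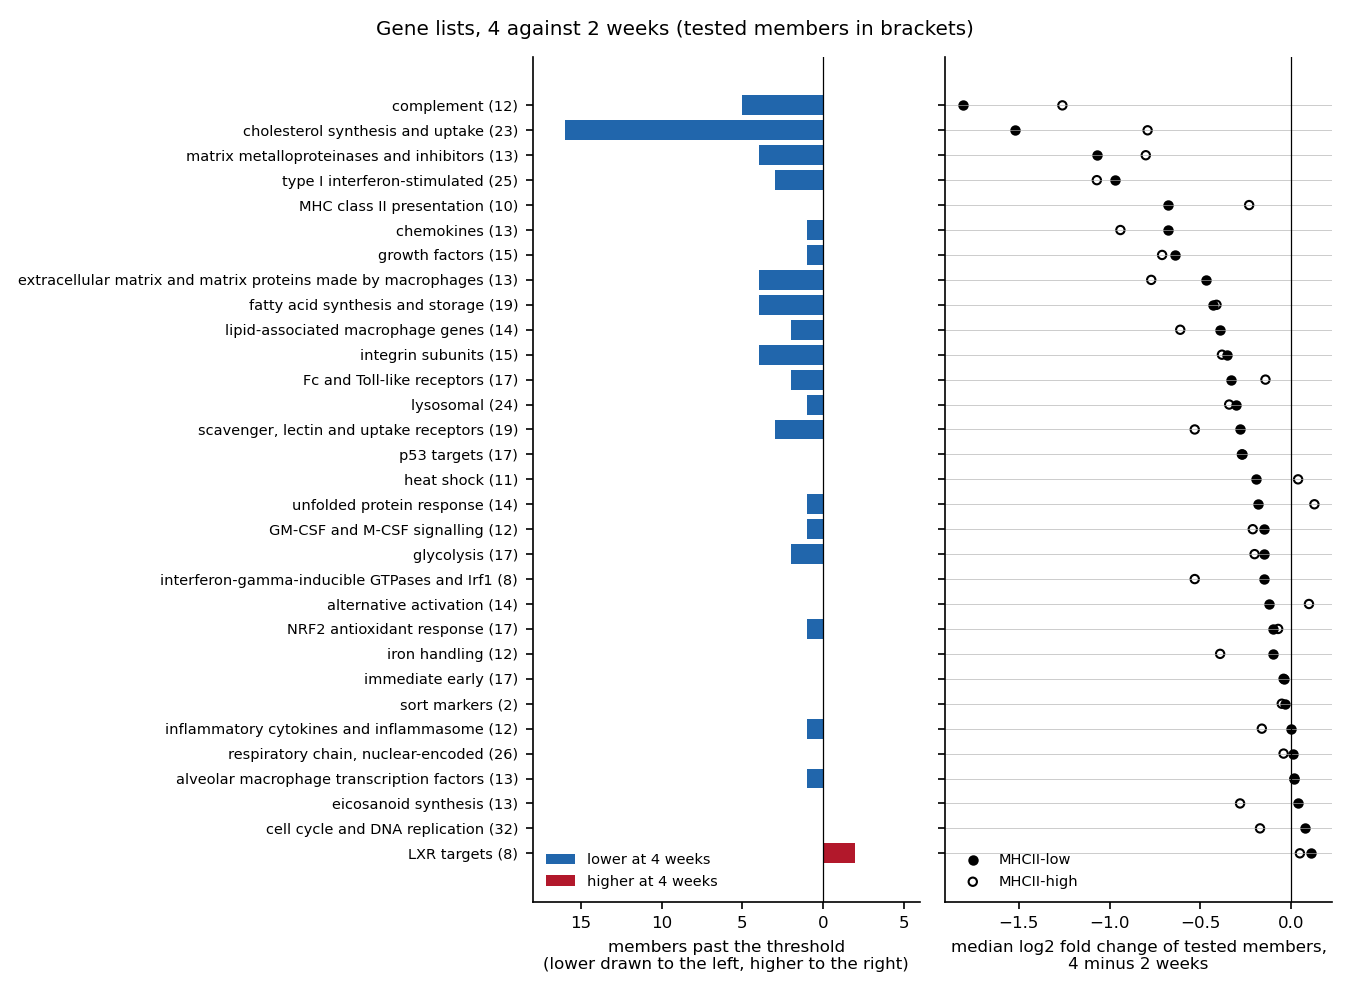
Left, members of each gene list past the threshold in MHCII-low cells (blue to the left, lower at 4 weeks; red to the right, higher), with the number of tested members in brackets. Right, the median log2 fold change, 4 minus 2 weeks, in MHCII-low (filled) and MHCII-high cells (open). Cholesterol synthesis has 16 lower members of 23, and the LXR list is the one with higher members.

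The largest decreases included genes that were almost undetected at 4 weeks. Ccbe1, a secreted factor of lymphatic vessel growth, measured 110, 119 and 99.1 normalized counts at 2 weeks and 0 in each 4-week library, with 1.2 and 0.9 in the controls. Against a floor of 3 reads per library, it was at least 37.7-fold lower at 4 weeks (adjusted p = 0.00084). Ighd, which encodes the IgD heavy chain of B cells, fell from 29.1, 28.7 and 13.8 to 0, at least 8.22-fold lower on the same floor. Another immunoglobulin heavy chain gene, Ighm, did not pass (log2 fold change 0.77, adjusted p = 0.98), and measured 2127 in the 4-week replicate 1, against 39.8 to 170 at 2 weeks and 36.2 and 73.5 in the other 4-week replicates. Tnc (tenascin C), Col1a1 (a collagen I chain) and Creg2 had log2 fold changes of -5.64, -5.51 and -5.01. Tnc passed in none of the fits with a library left out, Col1a1 in 1 of 6 (without the 4-week replicate 1), and Creg2 failed without the 2-week replicate 1. Marcks, an actin-regulating kinase substrate, measured 501, 401 and 377 at 2 weeks and 16.3, 38.2 and 86.4 at 4 weeks (log2 fold change -3.44 ± 0.50, adjusted p = 0.00065). Ptgir, the prostacyclin receptor (-3.14, adjusted p = 0.048), lost its call without any single library, and Cspg4, the NG2 proteoglycan (-2.91, adjusted p = 0.007), without the 4-week replicate 2. Ceacam19 fell by 2.83 (adjusted p = 0.0033).

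Other lower genes that held with each library left out in turn belonged to no list. Lrg1, a secreted glycoprotein that modulates TGF-beta signalling, measured 1477, 854 and 2006 at 2 weeks, 352, 212 and 336 at 4 weeks, and 35.4 and 19.8 in the controls. Its 4-week libraries lay below the 2-week ones (log2 fold change -2.22 ± 0.39, adjusted p = 0.0036) and above both controls (4 weeks against control 3.41, adjusted p = 0.0012, which uses the same 4-week libraries). Against control, 334 genes passed at 2 weeks (2.23%), 263 higher (1.75%) and 71 lower (0.474%), and 6 at 4 weeks (0.04%), 5 higher (0.0334%) and 1 lower (0.00667%). These comparisons share libraries with each other and with 4 against 2 weeks. Lrg1 and Cd63 were among the 5 and had also passed as lower at 4 than at 2 weeks. H2-Ab1, which did not pass between the times, was also among the 5 (4 weeks against control 2.14, adjusted p = 0.021). Its controls held 99.7 and 117.9. Nrp2, a co-receptor for semaphorins and VEGF, had a log2 fold change of -1.45 (adjusted p = 0.00011) and Cd93, a C-type lectin-like receptor, of -1.60 (adjusted p = 7.4e-05). For Anpep, the aminopeptidase CD13, it was -1.48 (adjusted p = 0.00051), for Nt5e, the adenosine-forming ectonucleotidase CD73, -1.88 (adjusted p = 0.0015), and for Sema4d, a semaphorin, -2.51 (adjusted p = 7.4e-05). These 5 were chosen after their values were seen.

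Increases were fewer and less stable: 4 of the 20 held with each library left out in turn, against 65 of the 135 decreases. Those 4 were Abca1, Gabbr1, Cpne5 and Hjurp. Gabbr1, a subunit of the GABA-B receptor, measured 738, 930 and 706 normalized counts at 2 weeks and 2841, 3077 and 2508 at 4 weeks, with 2739 and 2912 in the controls. The 4-week libraries lay at the level of the controls, 3.56-fold above the 2-week libraries (log2 fold change 1.83 ± 0.27, adjusted p = 0.00081). Cpne5, a calcium-dependent membrane-binding protein, measured 2352, 2167 and 1752 at 2 weeks and 6439, 4483 and 4394 at 4 weeks (log2 fold change 1.28 ± 0.22, adjusted p = 0.0036), with 5387 and 4708 in the controls. Hjurp, the chaperone that loads the centromeric histone CENP-A, measured 571, 690 and 1027 at 2 weeks and 2038, 1677 and 1421 at 4 weeks (log2 fold change 1.19 ± 0.22, adjusted p = 0.0049).

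Other increases depended on single libraries. Hmcn1, a large extracellular matrix protein, had a log2 fold change of 2.89 (adjusted p = 0.017) and lost its call without the 2-week replicate 3 or the 4-week replicate 1 or 2. Tlr5, the flagellin receptor, had one of 1.61 (adjusted p = 0.032), and passed with a library left out where that was the 4-week replicate 3. Icosl, a T cell co-stimulatory ligand, had one of 1.09 (adjusted p = 0.0086), lost without the 2-week or 4-week replicate 1. Il16 had one of 1.11 (adjusted p = 0.031), lost without the 2-week or 4-week replicate 1 or 2. Dnah11, an axonemal dynein of motile cilia, had one of 1.80 (adjusted p = 0.0066), lost without the 2-week replicate 3 or the 4-week replicate 1.

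Markers of other lung cells were present and some moved with time. Of 12 tested markers of alveolar type 1, club and ciliated epithelium, 1 was higher: Cyp2f2, a club cell cytochrome, measured 1647, 1381 and 667 at 2 weeks and 10846, 6238 and 6476 at 4 weeks, with 2804 and 5171 in the controls (log2 fold change 2.72 ± 0.59, adjusted p = 0.025). Its call was lost without the 2-week replicate 2 or 3 or any 4-week replicate, and another marker of the list passed as lower without the 4-week replicate 3. The list had 3 higher calls in voom and with the 6 libraries alone, 2 higher and 1 lower in DESeq2, and 0 without the filter. Scgb1a1, the secretoglobin that defines club cells, ran in the same direction without passing (2228 to 7925 at 2 weeks and 19013 to 24712 at 4 weeks, adjusted p = 0.20). The summed level of this list was 4260 to 10943 at 2 weeks, 26872 to 37751 at 4 weeks, and 12803 and 25412 in the controls. None of 12 alveolar type 2 markers passed in limma, although 7 had an unadjusted p under 0.05. DESeq2 and the replicate block each called 2 (1 higher, 1 lower), and the fits with the 6 libraries alone and with the mitochondrial covariate 1 higher. Their sum was 13074 to 15347 at 2 weeks and 11202 to 15628 at 4 weeks. The type 1, club and ciliated sum, at 4 weeks mostly Scgb1a1 and Cyp2f2, moved in the same direction as the 20 higher genes. Cyp2f2 is 1 of those 20, and they were chosen as higher, so a shared direction is partly built in. The alveolar type 2 sum overlapped between the times. What part either sum had in the change of the 20 genes was not tested.

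Among 6 tested neutrophil markers, Mmp8 and Cxcr2 were lower and none was higher. Cxcr2, a chemokine receptor, measured 4784, 3460 and 4293 at 2 weeks and 635, 1179 and 687 at 4 weeks (log2 fold change -2.37 ± 0.37, adjusted p = 0.0015). The granule genes Camp and Elane were at 0 in all 6 libraries, and Ly6g, Retnlg and Ngp were under the filter. The summed level of the list was 14204 to 15655 at 2 weeks and 7344 to 8326 at 4 weeks. Mmp8, Cxcr2 and Csf3r (log2 fold change -0.04) made up most of this sum, so its fall largely repeats the 2 calls. In 1 tested member the log2 fold change was positive (4.06), without overlap of the libraries, and did not pass. Of 9 fibroblast and smooth muscle markers the one call was Col1a1 and of 8 endothelial markers Vwf (log2 fold change -0.92, adjusted p = 0.047, lost without the 2-week replicate 1 or 3 or the 4-week replicate 2 or 3). Their sums were 745 to 1004 and 3045 to 4877 at 2 weeks, and 315 to 432 and 1794 to 2815 at 4 weeks. Neither list had a call in edgeR or voom, and the fibroblast list had 3 lower calls with the 6 libraries alone. No marker of dendritic cells, of B, T and NK lymphocytes, of eosinophils, mast cells and basophils, or of red cells and platelets passed in limma (1 of 8, 3 of 10, 0 of 3 and 0 of 6 with an unadjusted p under 0.05). Cd209a and Siglech, which mark dendritic cell subsets, and Prg2 and Fcer1a, which mark eosinophils and mast cells, were at 0 in all 6 libraries. The dendritic cell sum was 387 to 613 at 2 weeks and 221 to 338 at 4 weeks. The dendritic list had 1 call without the 4-week replicate 3. The lymphocyte sum was 333 to 716 at 2 weeks and 149 to 2501 at 4 weeks, where the 4-week replicate 1, with its high Ighm, stood apart.

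MHCII-high cells were sorted at the same times, and their libraries are in neither group compared above, although they enter the shared spread estimate. Their titles carry the same times and replicate numbers as the MHCII-low libraries, so both fractions may come from the same mice or pools, which the labels do not say. In them 166 genes passed for 4 against 2 weeks (1.11%), 51 higher (0.34%) and 115 lower (0.767%). All 135 genes lower in MHCII-low cells also had a negative log2 fold change in MHCII-high cells (54.4% of all genes did), with a median of -1.01, and 47 of them passed as lower there and none as higher. Of the 20 genes higher in MHCII-low cells, 17 were positive and 7 passed as higher in MHCII-high cells. These counts moved with single MHCII-high libraries. The 166 calls became 76, 59 and 54 without the 2-week MHCII-high replicates 1, 2 and 3, and 189, 290 and 249 without the 4-week MHCII-high replicates 1, 2 and 3. In the same order the 47 became 26, 23 and 14, and 32, 50 and 49. The negative sign held in 134 or 135 of the 135 genes throughout.

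Spp1 in MHCII-high cells measured 92775, 103351 and 123220 at 2 weeks and 18779, 24989 and 36775 at 4 weeks (log2 fold change -2.03, adjusted p = 0.00021). Gabbr1 measured 905, 1176 and 569 at 2 weeks and 5420, 3226 and 2306 at 4 weeks (2.02, adjusted p = 0.0013). Both genes thus moved the same way in both populations. Cholesterol synthesis genes had a smaller median in MHCII-high cells (-0.79, with 4 of 23 lower, against 0.767% of all genes). Their sum was 76448 to 93185 at 2 weeks and 40245 to 58610 at 4 weeks. Sqle there measured 5788, 7666 and 8539 at 2 weeks and 3397, 4348 and 3000 at 4 weeks (log2 fold change -1.03, adjusted p = 0.013).

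Whether the time difference itself differed between the populations was tested as an interaction. No gene passed in limma (smallest adjusted p = 0.10, with 819 genes under an unadjusted p of 0.05), nor in edgeR or voom. DESeq2 called 36 genes, 12 of them among the 155. Its calls were 26 positive and 10 negative interactions, with 4 genes in the cholesterol list. Several of the largest, such as Marveld3 (13.84) and Elf3 (11.76), were not among the 155. The 36 included Sqle (interaction -1.45, DESeq2 adjusted p = 0.00092) and Abca1 (1.23, 0.00061). In limma these genes had interactions of -1.44 ± 0.28 (Sqle, adjusted p = 0.12) and 1.25 ± 0.24 (Abca1, adjusted p = 0.12). Limma called 1 gene without the 2-week MHCII-high replicate 2 or the 4-week MHCII-high replicate 2, and 3 without the 4-week MHCII-high replicate 3. Abca1 in MHCII-high cells measured 5141, 5295 and 6135 at 2 weeks and 5057, 4224 and 5462 at 4 weeks, so the groups overlapped there (log2 fold change -0.17, adjusted p = 0.71). It was 1 of 3 higher genes with a negative value in MHCII-high cells. The others were Il16 (-0.47) and Atp2b4, a calcium pump (-0.52), whose call in MHCII-low cells (1.32, adjusted p = 0.043) was lost without any single library.

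**Figure D5:**
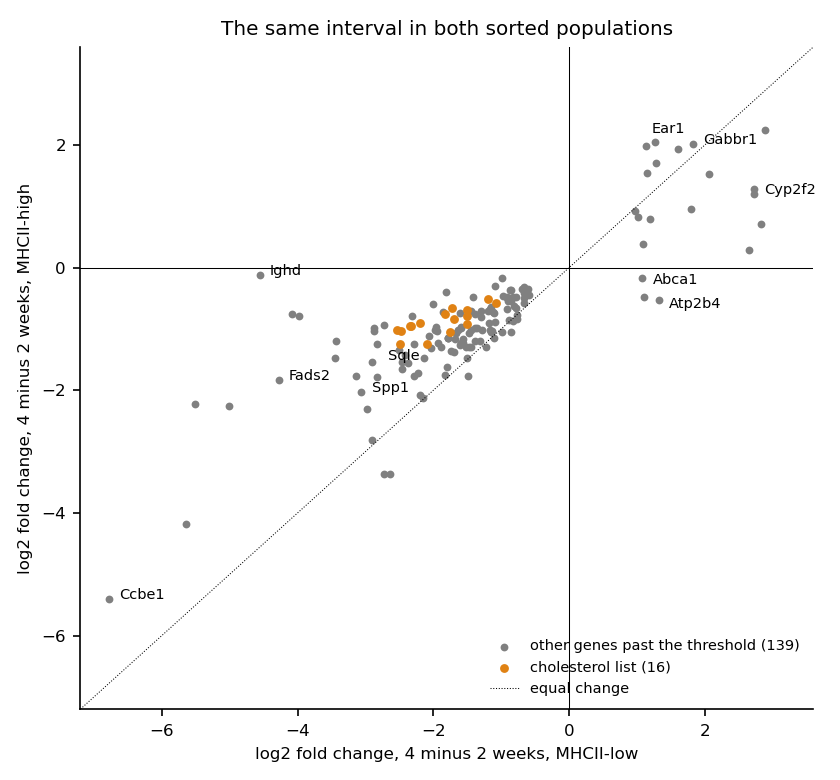
Log2 fold change, 4 minus 2 weeks, in MHCII-low (horizontal) and MHCII-high cells (vertical) for the 155 genes past the threshold in MHCII-low cells, with the 16 cholesterol list genes in orange and a dotted line of equal change. All 135 lower genes lie below 0 on both axes. The genes were chosen by their horizontal value, so a shorter distance on the vertical axis is no finding.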

How the data were processed

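RNA of sorted lung cells was sequenced in 14 libraries, made with a NuGen Ovation V2 cDNA kit and Nextera XT without molecular identifiers, per the labels' protocols. The authors deposited 1 table of normalized counts (a signal value per gene, scaled per library) for 43432 genes. STAR, DESeq2 and mm10 are named in the submitters' processing notes, without versions or roles, and the kind of normalization is not given in the sources used here. The table's percent column of GC content per gene is as deposited by the authors and was used in 1 alternative. In all 14 libraries the values were whole multiples of 1 read (100.0% of values up to 200 reads within 0.05 normalized counts, the table's rounding). A read was worth 0.55 to 2.24 normalized counts in the 6 libraries compared. In 1 control library it was worth 0.39, too close to the rounding for a firm check, and that library entered no count test. Reads and library depth were recovered from these steps. Counting error is therefore smallest for highly expressed genes, and p-values cover only the spread between these samples.

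Genes that reached 10 normalized counts in 2 or more of the 6 libraries were tested with limma 3.58.1 (R 4.3.3; trend, log2(value + 1), 1 coefficient per group over all 14 libraries), with Benjamini-Hochberg adjustment over 14986 genes and a threshold of 0.05. All adjusted p-values are from this fit unless another tool is named, and fold changes understate changes of low genes. Alternatives used edgeR 4.0.16, DESeq2 1.42.0 and voom on recovered reads of the 12 bleomycin libraries, other scalings, filters and pseudocounts, and leaving out each library. The fits were also run on simulated counts that had the same spread setting for every gene and library. This checks that the code runs and not how well the fits suit these data. Spearman correlations within a group were 0.963 to 0.976, and between 2-week and 4-week libraries 0.946 to 0.973, so the ranges overlapped. No 2 replicates agreed within sampling noise. The 6 libraries were mapped to groups by their labels.

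Genes named by rule were the 15 largest increases and 15 largest decreases past the threshold (mean of at least 100 in the higher group, no overlap), up to 4 called members of each list (otherwise 2), the MHC class II genes, the sort markers, Lrg1, Spp1 and Fn1. Other genes, among them further pathway members, C1q genes, Ighd and genes without a call, were named after their values were seen. A few genes, members of these lists included, are left out of the text and plots. The comparison, its members and the gene lists were chosen with earlier results of these data known. Promoters came from RefSeq (GRCm38.p6), and figures were drawn with matplotlib 3.10.9 in Python 3.11.15.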

Additional observations from a re-analysis of the deposited data

How the results depend on the processing

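The 155 calls became 307 in DESeq2 and 86 in edgeR with library totals, and lay between 95 (without the 4-week MHCII-low replicate 2) and 135 (without the 4-week MHCII-low replicate 3) with a library left out. Without the 2-week MHCII-low replicate 3 the count was 96. In edgeR with TMM it was 131, in voom 142 and with the 6 libraries alone 213 (64 higher, 149 lower). With a replicate block it was 168 (23 higher, 145 lower) and the interaction count stayed at 0. The same-numbered 2-week and 4-week libraries had correlated deviations of -0.07 to 0.06. A mouse sorted at 2 weeks cannot recur at 4 weeks, so these values cannot decide on pairing by mouse. Same-numbered MHCII-low and MHCII-high libraries of the same time had correlations of 0.02 to 0.13, and differently numbered ones of -0.15 to 0.1. Whether they share mice was not settled. The share of higher calls was 12.9%, and 27.0% at equal totals without mitochondrial ribosomal RNA, 30.0% with the 6 libraries alone, and 34.9% with the 8 MHCII-low libraries, a fit added after seeing the data. The median over all genes moved from 0.03 to 0.19 with library totals and 0.16 at equal totals. The interaction count of 0 was 36 in DESeq2 and ranged from 0 to 3 with a library left out. Of the 155 genes, 60 kept their call in every alternative and 69 in all 6 fits with a library left out. Reversals concerned genes that did not pass. Ms4a2 (-0.44) was 0.71 in voom and -1.79 to 0.68 with a library left out. H2-Oa (0.58) ranged from -0.35 to 1.25 and H2-Ob (-0.79) from -1.99 to 0.46. Ebp (0.08) was -0.04 in voom and ranged from -0.18 to 0.32. The causes of these shifts were not tested. With 3 libraries a group, low genes such as Ms4a2 gave imprecise values.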
